A study of Mus musculus with 8 samples.

Results

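The phagocyte NADPH oxidase was followed through 5 of its subunit genes, Cybb, Cyba, Ncf1, Ncf4 and Rac2, in whole-retina RNA from mice with inherited photoreceptor degeneration. The genes were chosen by symbol from the 57010 gene identifiers of the count table, with earlier results of these data known, and all 5 were found and passed the filter on low counts. Each of the 8 libraries came from 1 whole retina. There were 2 libraries from wild-type (WT) retina at postnatal day (P) 15 and 2 each from rd10 retina at P15, P18 and P21. The rd10 mice were homozygous for a missense mutation in Pde6b, which encodes a rod phosphodiesterase subunit, and the WT controls were described as C57BL/6J animals and as littermates. No agent was given. Since WT retina at P18 and P21 was not among the samples, age and genotype change together in every comparison of those ages with WT P15. The labels name biological replicates but do not tie retinas to animals, so the p-values measure the spread between these libraries.

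The phagocyte oxidase transfers electrons from NADPH in the cytosol across a membrane to oxygen and so makes superoxide. Cybb encodes the catalytic membrane subunit (NOX2) and Cyba encodes its membrane partner, which it needs for stability. In resting cells the organizer encoded by Ncf1 and the phosphoinositide-binding subunit encoded by Ncf4 wait in the cytosol, and they join the membrane pair together with a Rac GTPase when the cell meets microbes, debris or Fc receptor ligands. Rac2 is the Rac of blood-derived and myeloid cells, whereas Rac1 is made by most cells. In the central nervous system, retina included, the enzyme is best known from microglia.

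The members lie on 4 chromosomes. By GENCODE M21 (GRCm38), Cybb (ENSMUSG00000015340) spans chrX:9435252-9487771 on the minus strand and Cyba (ENSMUSG00000006519) spans chr8:122424776-122432930 on the minus strand. Ncf1 (ENSMUSG00000015950) spans chr5:134220053-134229625 on the minus strand. Ncf4 (ENSMUSG00000071715) at chr15:78244801-78262580 on the plus strand and Rac2 (ENSMUSG00000033220) at chr15:78559167-78572783 on the minus strand share a chromosome. The counts are per gene, over exons, and do not tell isoforms apart. The Ncf1 exons overlap those of Gtf2ird2 on the other strand, and 7.26% of the 50-base windows of Ncf1 transcripts also occur there. Whether the counting used strand is not given, so reads of that stretch cannot be assigned with certainty. No 50-base window of Rac2 transcripts occurs in Rac1.

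Because all 5 members were higher in both P18 libraries than in any P15 library, the start regions of those with a RefSeq promoter entry (GRCm38.p6) are shown. The table held Cybb, Cyba and Ncf1. Each stretch runs from 250 bases before the annotated start to 20 bases after it, on the strand of the gene. Capitals mark matches on either strand to 1 of 3 motifs. GAGGAA is the core of a PU.1-type box, GGGCGG is the Sp1-type box, and CCAAT is named for its letters. TATAAA was searched for too, and these motifs do not overlap one another here. The stretches are chrX:9469305-9469574, which starts within the longer GENCODE span of Cybb, chr8:122432921-122433190 and chr5:134229606-134229875, all on the minus strand.
Cybb: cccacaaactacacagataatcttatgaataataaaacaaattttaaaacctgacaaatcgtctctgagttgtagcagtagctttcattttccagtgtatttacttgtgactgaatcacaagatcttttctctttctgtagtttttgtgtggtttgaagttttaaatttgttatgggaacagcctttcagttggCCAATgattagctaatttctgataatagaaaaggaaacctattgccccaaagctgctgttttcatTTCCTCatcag
Cyba: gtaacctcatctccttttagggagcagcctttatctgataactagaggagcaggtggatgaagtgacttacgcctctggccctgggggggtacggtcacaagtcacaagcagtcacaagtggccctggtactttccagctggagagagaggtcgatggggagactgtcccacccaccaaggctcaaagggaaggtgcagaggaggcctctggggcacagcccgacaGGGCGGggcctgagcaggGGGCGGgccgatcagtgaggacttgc
Ncf1: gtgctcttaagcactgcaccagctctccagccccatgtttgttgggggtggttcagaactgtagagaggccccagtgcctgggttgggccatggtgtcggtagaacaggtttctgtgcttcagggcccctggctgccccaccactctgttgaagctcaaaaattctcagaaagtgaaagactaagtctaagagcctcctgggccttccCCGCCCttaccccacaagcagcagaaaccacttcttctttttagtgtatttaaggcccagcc

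The 3 start regions differed in their letters. Cybb carried GAGGAA on the reverse strand at bases 260 to 265, just after the start, and CCAAT at bases 195 to 199. Cyba carried GGGCGG at bases 227 to 232 and again at 245 to 250, and Ncf1 carried it on the reverse strand at bases 209 to 214. TATAAA was in none of the 3. Over the full window of 300 bases, 35.3% of the Cybb bases, 60.7% of the Cyba bases and 54.0% of the Ncf1 bases were G or C, against a median of 52.7% over the 32851 windows of the table. GAGGAA occurred in 28.3% of these windows, GGGCGG in 35.7%, CCAAT in 37.4% and TATAAA in 13.6%, so each match is a common one. A match is a run of letters and not a measured binding site.

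The libraries held between 28076947 and 33724562 counts. Levels are given as CPM, counts scaled to a library size of 1e6, after TMM scaling in edgeR. The labelled tissue was present in each library: the summed level of 10 rod and cone markers lay between 18270 and 46090 CPM, and none was at 0. By Y-linked counts, both WT P15 libraries were of female type, both rd10 P15 libraries of male type, and P18 and P21 each held 1 of either type, with replicate 1 male. Sex and genotype thus cannot be told apart at P15, which bears on the X-linked Cybb. Replicate 2 of rd10 P21 stood apart from replicate 1 in most members, and results that rest on it are given with and without it. In whole retina, fewer cells of a type and less RNA per cell cannot be told apart.

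The membrane pair was lowest in the P15 retinas of both genotypes. Cybb stood at 0.554 and 0.777 CPM in the WT P15 libraries and at 1.62 and 0.740 CPM in rd10 P15, from counts of 15, 24, 51 and 21. In rd10 P18 it stood at 8.74 and 7.66 CPM, and in rd10 P21 at 9.54 and 1.54 CPM. Both P18 libraries were above all 4 P15 libraries, while P21 replicate 2 lay just below the higher rd10 P15 library. Cyba was the steadier gene, at 2.81 and 2.85 CPM in the WT libraries and at 2.99 and 3.46 CPM in those of rd10 P15. It reached 15.1 and 11.7 CPM at P18 and 9.14 and 4.41 CPM at P21. For Cyba, all 4 libraries of the older rd10 retinas were above all 4 P15 libraries.

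The cytosolic subunits were highest at P18 by their means as well, and they differed in their spread. Ncf1 stood at 0.850 and 2.95 CPM in the WT P15 libraries, and the rd10 P15 libraries held 1.91 and 1.48 CPM. At P18 it stood at 8.71 and 9.14 CPM, and at P21 at 8.68 and 5.03 CPM. The WT libraries thus spanned both rd10 P15 values, and every P18 and P21 library was above them. Gtf2ird2, which shares exon sequence with Ncf1, was at 5.49 CPM in P18 replicate 1 and between 21.2 and 31.9 CPM in the other 7 libraries. Ncf4 was the scarcest member, with counts of 4 and 0 in the WT libraries, 8 and 5 at P15 in rd10, 68 and 47 at P18, and 40 and 5 at P21. A count of 0 in WT P15 replicate 2 allows a level of up to 0.0971 CPM (3 counts, counting error only). In CPM, Ncf4 reached 2.03 and 1.48 at P18 and 1.14 and 0.175 at P21, so that P21 replicate 2 was just below both rd10 P15 libraries, at 0.255 and 0.176.

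Rac2 stood at 0.961 and 1.59 CPM in the WT libraries, and rd10 retina of the same age held 1.05 and 0.776 CPM. It reached 9.10 and 8.47 CPM at P18. In rd10 P21 it stood at 7.82 CPM in replicate 1 and at 1.29 CPM in replicate 2, which lies between the WT libraries. The members split at P21 by how far the replicates stood apart: replicate 1 was 6.20 times replicate 2 for Cybb, 6.53 times for Ncf4 and 6.05 times for Rac2, but 2.07 times for Cyba and 1.72 times for Ncf1. Summed over the 5 genes, the WT P15 libraries held 5.32 and 8.16 CPM and the rd10 P15 libraries 7.83 and 6.63. The P18 libraries held 43.6 and 38.5 CPM, and those of P21 held 36.3 and 12.4.

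**Figure D1:**
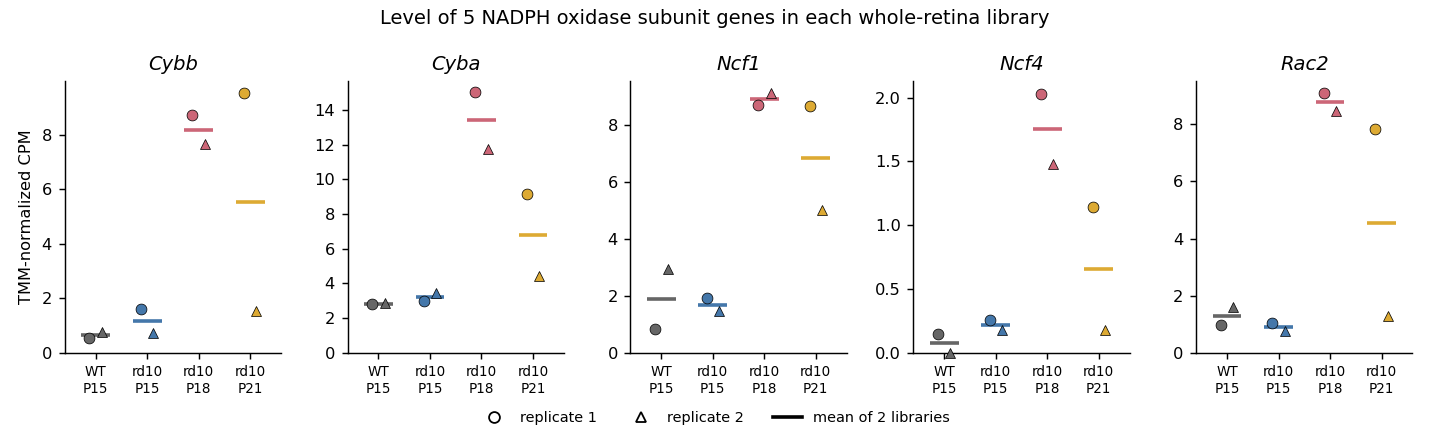
TMM-normalized CPM (vertical axes, linear, 1 scale per gene) of the 5 subunit genes in the 8 libraries, with circles for replicate 1, triangles for replicate 2 and a line at the mean of 2. Both P18 libraries stand above the P15 libraries for every gene, whereas the P21 replicates are far apart for Cybb, Ncf4 and Rac2.

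At P15, before or at the onset of rod loss in this model, the rd10 retina was compared with WT of the same age. No member was called by the edgeR quasi-likelihood test (a call needs an adjusted p under 0.05 and a change of more than 1 on the log2 scale), none had an unadjusted p under 0.05, and DESeq2 called 0, beside 1.14% of all genes called higher. The log2 fold changes were 0.82 for Cybb (SE 0.81), 0.19 for Cyba (SE 0.38), -0.17 for Ncf1 (SE 0.55), 1.54 for Ncf4 (SE 1.44) and -0.48 for Rac2 (SE 0.75). The smallest adjusted p by edgeR was 0.738, for Ncf4. Of the 20457 genes tested, 0.137% were called higher and 2523 had an unadjusted p under 0.05. Both rd10 libraries were above both WT libraries for 2 members, Cyba and Ncf4, against 24.8% of all genes. With a term for sex the log2 fold changes of Cybb and Cyba were -0.55 and -0.51. That term is estimated only within P18 and P21, where sex coincides with replicate number and P21 replicate 2 was low. It cannot separate sex from genotype at P15. Without WT P15 replicate 2 the log2 fold change of Ncf1 was 0.99. With standard errors of this size, a change of the order of 2-fold in Cybb or Rac2 was not detectable at this depth and number of libraries.

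At P18, all 5 members had higher means than WT P15, and Cyba passed the test. Cyba rose 4.73-fold, from 2.83 ± 0.0284 (SD, n = 2) to 13.4 ± 2.34 (SD, n = 2) CPM, with a log2 fold change of 2.24 (SE 0.38, edgeR adjusted p = 0.0328). Cybb had a log2 fold change of 3.61 (SE 0.84, edgeR adjusted p = 0.0805), from 0.666 ± 0.157 to 8.20 ± 0.767 CPM (SD, n = 2 each). The values were 2.22 for Ncf1 (SE 0.56, edgeR adjusted p = 0.0928), 4.54 for Ncf4 (SE 1.48, edgeR adjusted p = 0.171) and 2.78 for Rac2 (SE 0.75, edgeR adjusted p = 0.111). All 5 had an unadjusted p under 0.05, as did 3563 of the 20457 genes tested. Both P18 libraries were above both WT libraries for all 5, against 24.1% of all genes. The count called was 1 of 5, against 1.15% of all genes called higher, and the members' median log2 fold change was 2.78 beside 0.01 over all genes tested.

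The call for Cyba was lost in 5 of 8 fits that left out a library, and the other tool called more members. DESeq2 called all 5, with adjusted p of 0.000143 for Cybb, 2.04e-05 for Cyba, 0.00329 for Ncf1, 0.0194 for Ncf4 and 0.00345 for Rac2, while it called 3.42% of all genes with an adjusted p higher. By edgeR, the adjusted p of Cyba was 0.217 without WT P15 replicate 1, 0.147 without WT P15 replicate 2, 0.0597 and 0.0613 without rd10 P15 replicate 1 or 2, and 0.0659 without rd10 P18 replicate 1, so that no member was then called. Without rd10 P18 replicate 2 Cyba alone was called (edgeR adjusted p = 0.00956), and without either rd10 P21 library 3 members were called, Cybb and Rac2 beside Cyba. With both groups at 2 libraries, the exact two-sided permutation test cannot go below p = 0.333.

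The change within the rd10 strain from P15 to P18 was of like size, with no WT library in either group. Without WT retina at P18 or P21, age and degeneration cannot be told apart within rd10 either. Both rd10 P15 libraries were of male type, whereas P18 held 1 of either type. The log2 fold changes were 2.79 for Cybb (SE 0.80), 2.06 for Cyba (SE 0.38), 2.39 for Ncf1 (SE 0.56), 3.0 for Ncf4 (SE 1.33) and 3.26 for Rac2 (SE 0.77). No member was called by edgeR, with adjusted p from 0.0639 for Cyba to 0.396 for Ncf4. Unadjusted, 4 had an edgeR p under 0.05, as did 2638 of the 20457 genes tested. DESeq2 called 4, all but Ncf4, beside 2.22% of all genes. Both P18 libraries were above both rd10 P15 libraries for all 5 members, against 21.9% of all genes, and 0.523% of all genes were called higher. The members' median was 2.79 beside 0.01 over all genes. The number called moved with the library left out. That held for the P21 libraries too, which are in neither group but in the shared estimate of the spread. Over these fits the log2 fold change lay between 2.33 and 3.47 for Cybb, 1.87 and 2.22 for Cyba and 3.06 and 3.50 for Rac2. It lay between 2.22 and 2.59 for Ncf1 and between 2.76 and 3.29 for Ncf4.

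At P21 the means stayed above WT P15, with a wider spread. The log2 fold changes were 3.05 for Cybb (SE 0.82, edgeR adjusted p = 0.182), 1.26 for Cyba (SE 0.38, edgeR adjusted p = 0.221), 1.85 for Ncf1 (SE 0.55, edgeR adjusted p = 0.221), 3.14 for Ncf4 (SE 1.44, edgeR adjusted p = 0.447) and 1.84 for Rac2 (SE 0.73, edgeR adjusted p = 0.378). No member was called by edgeR, and 4 had an unadjusted p under 0.05, as did 2416 of the 20457 genes tested. DESeq2 called 2, Cybb and Ncf1, beside 2.23% of all genes. Both P21 libraries were above both WT libraries for 4 members, all but Rac2, against 24.9% of all genes, and 0.244% of all genes were called higher. Without P21 replicate 2, Cybb had a log2 fold change of 3.83. Without P21 replicate 1, its log2 fold change was 1.20 and that of Rac2 was 0.02, so the size of these changes at P21 is set by which library is kept.

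Against rd10 P15, the P21 log2 fold changes were 2.22 for Cybb (SE 0.79), 1.07 for Cyba (SE 0.37), 2.01 for Ncf1 (SE 0.56), 1.60 for Ncf4 (SE 1.29) and 2.32 for Rac2 (SE 0.75). No member was called by edgeR, and 4 had an unadjusted p under 0.05, as did 2624 of the 20457 genes tested. DESeq2 called 2, Ncf1 and Rac2, beside 2.06% of all genes. Both P21 libraries were above both rd10 P15 libraries for 3 members (Cyba, Ncf1 and Rac2), against 26% of all genes, and 0.298% of all genes were called higher. Without P21 replicate 2, Rac2 had a log2 fold change of 3.10, and without P21 replicate 1 that of Ncf4 was -0.30.

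From P18 to P21, all 5 log2 fold changes were below 0, at -0.56 for Cybb (SE 0.73), -0.98 for Cyba (SE 0.37), -0.38 for Ncf1 (SE 0.52), -1.40 for Ncf4 (SE 1.24) and -0.94 for Rac2 (SE 0.69). None was called by edgeR or DESeq2, which called 0.361% of all genes lower. Only 1, Cyba, had an unadjusted p under 0.05 (edgeR adjusted p = 0.440), as did 2219 of the 20457 genes tested. Both P21 libraries were below both P18 libraries for 4 members, all but Cybb, against 22% of all genes, and 0.0147% of all genes were called lower. Without P21 replicate 2, the log2 fold change of Cybb was 0.22. The comparisons share groups with each other, so their values are set side by side and are not independent.

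**Figure D2:**
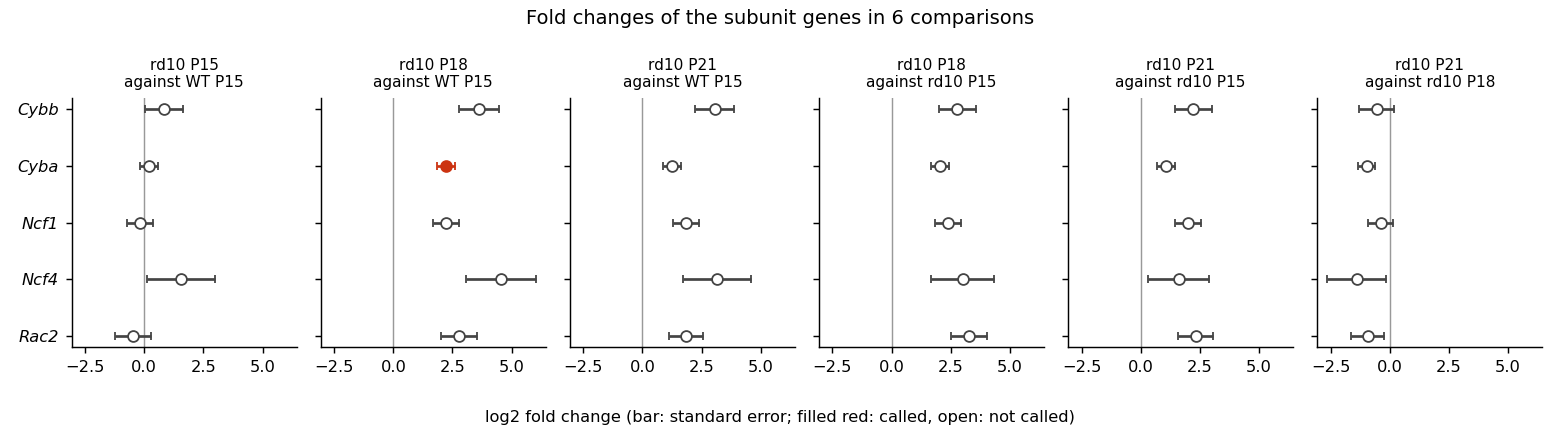
Log2 fold change (horizontal axis) of each subunit gene in the 6 comparisons, with standard errors as bars, from the edgeR fit to all 8 libraries. Cyba at P18 against WT P15, the filled point at 2.24, was the only call, and both panels that compare P18 with a P15 group lie wholly to the right of 0.

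Levels can be compared between genes only per length of transcript, here as CPM per kilobase of exon. At P18, Cyba stood highest at a mean of 12.9 CPM per kilobase, followed by Rac2 at 2.83, Ncf1 at 2.44, Cybb at 1.41 and Ncf4 at 0.869, and the libraries of neighbouring genes in this order did not overlap. At WT P15 Cyba again stood highest, at 2.72 CPM per kilobase, with Ncf1 at 0.518, Rac2 at 0.410, Cybb at 0.115 and Ncf4 at 0.0366. The WT libraries of Ncf1 and Rac2 overlapped on this scale, and the other neighbours in the order did not. At P21 only Cyba stood clear of the others, since replicate 2 of Cybb, at 0.265, and of Rac2, at 0.417, lay near or below replicate 1 of Ncf4, at 0.565. The exon lengths come from GENCODE, so a gene read mostly from a short isoform is understated.

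The membrane pair was unequal in every library. The Cybb level per kilobase was 3.53% and 4.88% of the Cyba level in the WT libraries and 9.71% and 3.83% at P15 in rd10. At P18 it was 10.4% and 11.6%, and at P21 it was 18.7% and 6.25%. The P18 ratios were above those of the P15 libraries, and P21 replicate 1 was the highest. Of the Rac pair, Rac2 stood at 1.03% and 1.53% of the Rac1 level in the WT libraries and at 0.849% and 0.682% in those of rd10 P15. It stood at 5.87% and 6.72% at P18 and at 6.73% and 4.38% at P21, above every P15 library. The P21 replicate 2 ratio rests on a low Rac1 level, since Rac1 was at 42.8 CPM in that library and between 134.6 and 224.6 CPM in the other 7. These ratios are descriptions without a test.

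**Figure D3:**
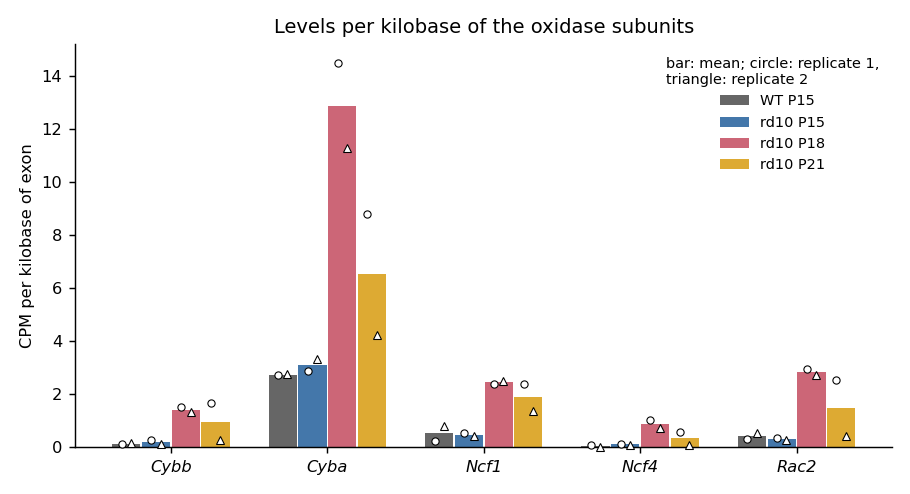
CPM per kilobase of exon (vertical axis, from 0) of the 5 subunit genes in the 4 groups, with bars for the mean of 2 libraries, circles for replicate 1 and triangles for replicate 2. Cyba is the highest gene in every group, with a mean of 12.9 at P18, and Ncf4 is the lowest by its mean.

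Another 4 genes that work with the enzyme were read beside the members. They were Cybc1, a chaperone for the membrane pair, Hvcn1, the proton channel that offsets the charge the enzyme moves, Rac1, and Rap1a, a GTPase found with the membrane pair. Hvcn1 stood at 1.22 and 2.69 CPM in the WT libraries and at 1.50 and 1.34 CPM at P15 in rd10, then at 4.39 and 4.54 CPM at P18 and 3.45 and 3.39 CPM at P21. All 4 libraries of the older rd10 retinas were above those of P15. At P18 against WT P15, Hvcn1 had a log2 fold change of 1.19 (SE 0.45), Cybc1 of 0.51 (SE 0.24), Rac1 of 0.52 (SE 0.57) and Rap1a of 0.47 (SE 0.28). None of the 4 was called by edgeR or DESeq2, and 1 had an unadjusted p under 0.05, beside 3563 of the 20457 genes tested. The members' median of 2.78 at P18 stood beside 0.51 for these 4 genes, of which Cybc1, Rac1 and Rap1a had levels of over 10 CPM in every library.

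The other NADPH oxidases of the genome were scarce in these retinas. Of 9 listed genes (Nox1, Nox3, Nox4, Noxo1, Noxa1, Duox1, Duox2, Duoxa1 and Duoxa2), 7 had a count in any library and 3 could be tested, and none was called by edgeR or DESeq2 in the comparisons with WT P15, nor did any have an unadjusted p under 0.05. Noxo1, an organizer for NOX1, stood between 1.17 and 2.30 CPM in all libraries without a group apart from the rest. Nox4, a constitutively active oxidase, was at 0 and 1.65 CPM in WT P15 and between 0.358 and 1.30 CPM in the rd10 libraries. Duox1 had at most 16 counts in a library.

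Upstream of the enzyme, 22 genes for receptors, adaptors, kinases and exchange factors that lead to oxidase assembly were read. At P18 against WT P15, 21 had positive log2 fold changes, 20 had both P18 libraries above both WT libraries, and 3 were called, with a median of 1.87. Of all genes, 24.1% had both P18 libraries above, and edgeR and DESeq2 called 1.15% and 3.42% higher. These 2 shares called were 0.244% and 2.23% at P21, and 0.523% and 2.22% between P15 and P18 in rd10. Itgam, a subunit of complement receptor 3, went from 0.148 and 0.227 CPM in WT P15 to 6.86 and 21.4 CPM in rd10 P18, a log2 fold change of 6.20 (SE 0.68, edgeR adjusted p = 0.00787). The Fc receptor genes Fcgr1 (log2 fold change 3.71, edgeR adjusted p = 0.0400) and Fcgr3 (3.20, edgeR adjusted p = 0.0291) rose too. At P21 Itgam was the 1 call (4.10, edgeR adjusted p = 0.0487), with a median of 1.97 for the list. Between P15 and P18 in rd10, Itgam (3.32, edgeR adjusted p = 0.0492) and Clec7a (6.83, edgeR adjusted p = 0.0485) were called by edgeR. Clec7a, the beta-glucan receptor Dectin-1, was at 0 and 0.176 CPM in rd10 P15 and at 8.89 and 11.3 CPM in rd10 P18, but at 0.665 and 0.842 CPM in WT P15. The number called among the 22 at P18 against WT P15 was 0 with WT P15 replicate 1 left out and 7 with replicate 2 of either P18 or P21 left out, and DESeq2 called 13. At P21 it ran from 0, without any P15 library or without P21 replicate 1, to 3 without either P18 library, was 0 with a term for sex or the replicate block, and DESeq2 called 12. Between P15 and P18 in rd10 it was 0 without any P15 library or with only the 4 libraries compared, 1 with the replicate block or without P18 replicate 1, 4 with a term for sex, 5 without P18 replicate 2, and 11 by DESeq2.

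Of 10 transcription factors known to act on oxidase genes, 9 could be tested, and all 9 had positive log2 fold changes at P18 against WT P15, with a median of 2.16. Irf8, a myeloid factor, rose from 2.99 and 2.72 to 19.9 and 11.3 CPM (log2 fold change 2.45, SE 0.42, edgeR adjusted p = 0.0330). Irf1, an interferon-induced factor, rose by 2.94 on the log2 scale (edgeR adjusted p = 0.0348), and Cebpb, an inflammation-induced factor, by 3.02 (edgeR adjusted p = 0.0285). Irf8 (2.76, edgeR adjusted p = 0.0407) and Irf1 (3.43, edgeR adjusted p = 0.0406) were also called between P15 and P18 in rd10. At P21 against WT P15 none was called by edgeR, DESeq2 called 3, and the median was 1.65. There 5 had an unadjusted p under 0.05, as did 2416 of the 20457 genes tested. At P18, DESeq2 called 5 against WT P15 and 5 against rd10 P15. Of all genes, edgeR and DESeq2 called 1.15% and 3.42% higher at P18 against WT P15, and 0.523% and 2.22% against rd10 P15. At P21 against WT P15 these shares were 0.244% and 2.23%. Spi1, which encodes PU.1, stood at 1.70 and 2.01 CPM in WT P15, 8.08 and 3.50 at P18 and 5.97 and 1.68 at P21, with a log2 fold change of 1.64 at P18 (edgeR adjusted p = 0.239). With either WT P15 library left out, 0 of these genes were called at P18 against WT P15, and 1 with either rd10 P15 library left out or with only the 4 libraries compared. Between P15 and P18 in rd10 the count was 0 without any P15 library or with only the 4 libraries compared, 1 without P18 replicate 1, 4 without P18 replicate 2 or either P21 library, and 5 with a term for sex. At P21 against WT P15 it was 2 without either P18 library and 1 without P21 replicate 2.

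Genes for oxidant handling, among them those whose enzymes dispose of superoxide and peroxide, had a smaller median log2 fold change than the members at P18. Hmox1, not a superoxide or peroxide enzyme, had a larger log2 fold change at P18 against WT P15 than Cyba, Ncf1 and Rac2. Its change was smaller than those of Cybb and Ncf4. Against rd10 P15, its log2 fold change at P18 was above that of every member. Of 17, 1 was called at P18 against WT P15, beside 1.15% of all genes called higher, and the median of the list was 0.46 on the log2 scale. It was Hmox1, heme oxygenase 1, at 1.33 and 2.95 CPM in the WT libraries and 14.8 and 17.9 CPM at P18 (log2 fold change 2.93, SE 0.58, edgeR adjusted p = 0.0493), and it was called again between P15 and P18 in rd10 (3.71, edgeR adjusted p = 0.0485). At P21 against WT P15 none was called by edgeR, and 3 had an unadjusted p under 0.05, beside 2416 of the 20457 genes tested. DESeq2 called 2 higher, beside 2.23% of all genes, and the median was 0.09. Without rd10 P18 replicate 1, and without any of the 4 P15 libraries, 0 of the 17 were called at P18 against either P15 group, and without rd10 P18 replicate 2 the count was 2 against WT P15. With the replicate block 0 were called in either comparison, and with a term for sex, or only the 4 libraries compared, 0 against WT P15.

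Markers of microglia, which can carry the oxidase, were higher than WT P15 at P18 and P21 in most cases, but did not follow the members at each step. The 13 microglia markers together held 54.6 and 63.3 CPM in the WT libraries, and the rd10 P15 libraries held 92.7 and 83.7 CPM. The sum was 206.7 and 200.8 CPM at P18 and 325.2 and 159.4 CPM at P21, and none of the 13 was at 0 in both libraries of a group. At P18 against WT P15, 12 had positive log2 fold changes with a median of 1.36. EdgeR called 2 of them: Tmem119 (2.27, edgeR adjusted p = 0.0479) and C1qa (2.43, edgeR adjusted p = 0.0370). At P21 all 13 were positive with a median of 1.69, and C1qa (2.77, edgeR adjusted p = 0.0495) was the only call by edgeR. Of all genes, edgeR and DESeq2 called 1.15% and 3.42% higher at P18 against WT P15, and 0.244% and 2.23% at P21. Between P15 and P18 in rd10, 9 were positive with a median of 0.68, beside 2.79 for the members. P2ry12, a purinergic receptor of microglia, was at 7.86 and 8.07 CPM in rd10 P15 and at 4.42 and 3.75 CPM in rd10 P18 (log2 fold change -0.96, edgeR adjusted p = 0.254). From P18 to P21 10 of 13 markers were positive and 0 of 5 members. The marker median was 0.50, while that of the 5 members was -0.94. No marker was called by edgeR or DESeq2, and 3 had an unadjusted p under 0.05, beside 2219 of the 20457 genes tested. The number of markers called at P18 ran from 0 without any P15 library or without P18 replicate 1 to 6 without either P21 library, was 1 with the replicate block or with only the 4 libraries compared, and DESeq2 called 6. At P21 it ran from 0, without any P15 library, P18 replicate 2 or P21 replicate 1, to 5 without P21 replicate 2, was 0 with the replicate block, a term for sex or only the 4 libraries compared, and DESeq2 called 7.

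Set against the mean of the 13 markers in the same library, the members stood higher at P18 than at P15. On the log2 scale, Cybb was at -2.12 and -1.73 relative to the markers in the WT libraries and at -1.19 and -2.41 at P15 in rd10, then at 0.0021 and -0.12 at P18 and -0.57 and -2.23 at P21. Rac2 was at -1.39 and -0.76 in the WT libraries and at -1.79 and -2.35 at P15 in rd10, then at 0.060 and 0.025 at P18 and -0.85 and -2.47 at P21. Cyba was at 0.098 and 0.058 in WT P15 and at 0.78 and 0.49 in rd10 P18, and at P21 it stood below every other library, at -0.63 and -0.75. Relative to the median of the markers instead of their mean, the mean of Cyba at P21, at -0.24, was above that of rd10 P15, at -0.60. The P18 libraries were above all 4 P15 libraries for Cybb, Cyba, Ncf4 and Rac2, whereas for Ncf1 they stood at -0.0028 and 0.13 beside 0.11 in WT P15 replicate 2. For Ncf4 the P18 values were -2.07 and -2.44. At P21, all 5 members stood below their P18 values relative to the markers in both libraries. These ratios compare RNA in a mixed tissue, have no test, and depend on which genes stand for microglia.

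**Figure D4:**
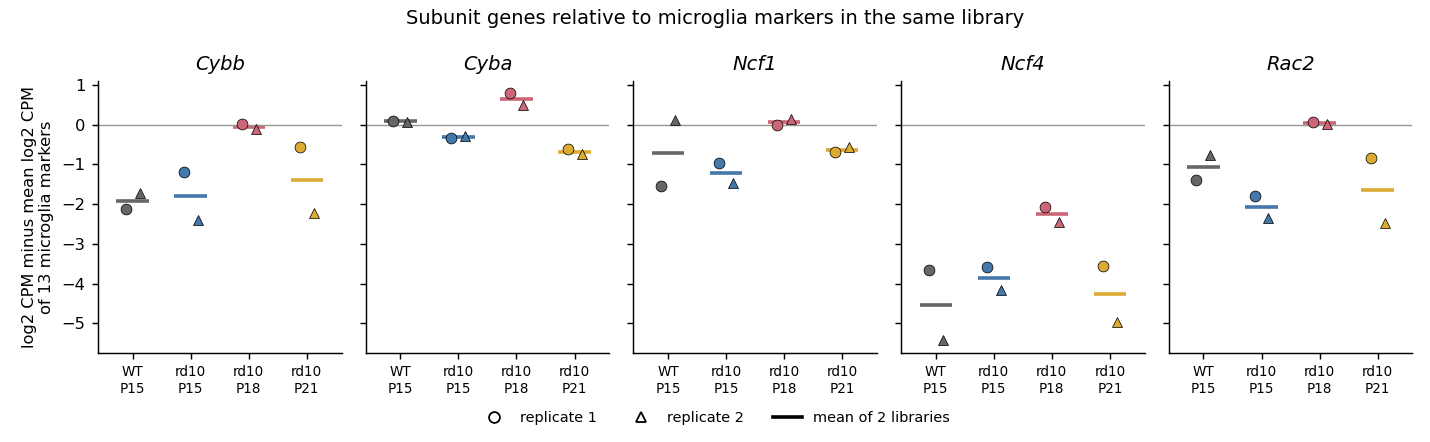
Log2 CPM of each subunit gene minus the mean log2 CPM of 13 microglia markers in the same library (vertical axis), with circles and triangles for replicates 1 and 2 and lines at the mean of 2. Values at P18 lie between -2.44 and 0.78 and are the highest of each gene except for Ncf1, where WT P15 replicate 2 lies within their range.

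Markers of other phagocytes were lower in level and less even. The 10 monocyte and macrophage markers together held 18.5 and 14.7 CPM in the WT libraries, and the rd10 P15 libraries held 20.4 and 16.2 CPM. The sum was 41.8 and 25.3 CPM at P18 and 39.0 and 23.4 CPM at P21. Of the 10, 7 were at 0 in both WT P15 libraries, 5 in both of rd10 P15, and 1 in both of P18 and of P21. Lyve1, a marker of perivascular macrophages and lymphatic vessels, made up most of the sum in the P15 libraries, at 14.7 to 19.7 CPM. In rd10 P18 it stood at 17.6 and 16.0 CPM, so the sum understates the change in the rest of the list. Ly6c2, a marker of inflammatory monocytes, stood at 4.83 and 2.02 CPM in rd10 P18 and at 6.57 and 0 CPM in rd10 P21. Ms4a4c stood at 6.71 and 1.01 CPM in rd10 P18 and at 2.66 and 0 CPM in rd10 P21, and it was at 0 in all P15 libraries. Both were at 0 in the P21 library in which Cybb, Ncf4 and Rac2 were low. Ccr2, at 2.31 and 0.105 CPM in replicates 1 and 2 of rd10 P21, and Plac8, at 1.88 and 0 CPM, were low there too. F13a1, at 0.314 and 0.210 CPM, and Ms4a7, at 1.23 and 0.629 CPM, differed less, whereas Mrc1, Cd163 and Lyve1 were not low there. In replicates 1 and 2 of rd10 P21, Mrc1 stood at 0.114 and 2.03 CPM, Cd163 at 0 and 0.280 CPM and Lyve1 at 23.9 and 20.2 CPM. Of the 8 markers that could be tested none was called by edgeR at P18 or P21 against WT P15. Unadjusted, 5 and 4 had an edgeR p under 0.05, as did 3563 and 2416 of the 20457 genes tested. DESeq2 called 4 and 2, beside 3.42% and 2.23% of all genes called higher. The part of microglia and of monocytes in the members' levels was not tested.

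**Figure D5:**
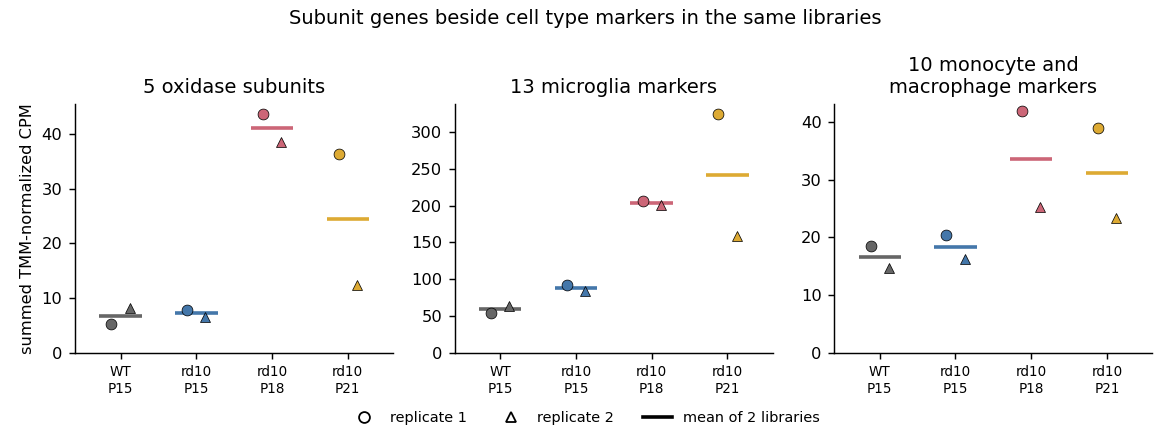
Summed TMM-normalized CPM (vertical axes from 0, 1 scale per panel) of the 5 subunit genes, the 13 microglia markers and the 10 monocyte and macrophage markers in each library, with lines at the mean of 2. The subunit sum is 43.6 and 38.5 at P18 and 36.3 and 12.4 at P21, while the microglia sum reaches 325.2 in P21 replicate 1.

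Neutrophils, which carry much of this enzyme in blood, left little trace. Of 10 neutrophil markers, 6 were at 0 in all 8 libraries, Ly6g, Mpo and Elane among them, none could be tested, and the summed level was 2.18 CPM in rd10 P18 replicate 1 and at most 0.148 CPM elsewhere. S100a8 was at 1.52 CPM in that P18 library. Of 10 lymphocyte markers 3 could be tested, and the sum lay between 0.406 and 4.33 CPM. Red blood cell markers summed to 187.9 and 177.0 CPM in the WT libraries and 67.1 and 84.6 CPM at P15 in rd10, then to 159.9 and 56.8 CPM at P18 and 125.3 and 132.8 CPM at P21, an order unlike that of the members. Markers of pigment epithelium and lens summed to at most 42.4 CPM in P18, P21 and WT P15 replicate 1 and to 110.9, 148.2 and 168.3 CPM in the other P15 libraries. Of the photoreceptor markers, Arr3, cone arrestin, was lower than WT at P15 (fell by 1.71 on the log2 scale, edgeR adjusted p = 0.0150) and P18 (fell by 1.39, edgeR adjusted p = 0.0150), and Gnat1, rod transducin, at P21 (fell by 1.15, edgeR adjusted p = 0.0332). Between P15 and P21 in rd10, Arr3 rose (1.49, edgeR adjusted p = 0.0193). Lrat, a retinoid enzyme of the pigment epithelium, was lower at P21 than in WT P15 (fell by 2.996, edgeR adjusted p = 0.0488) and in rd10 P15 (fell by 4.14, edgeR adjusted p = 0.0193). No photoreceptor marker was called at P15 without WT P15 replicate 1 or either rd10 P15 library or with a term for sex, at P18 without WT P15 replicate 1, or at P21 against WT P15 without any P15 library or P21 replicate 1 or with the replicate block. Between P15 and P21 in rd10 none was called without either rd10 P15 library. No pigment epithelium or lens marker was called at P21 against WT P15 without any P15 or P21 library, with a term for sex, with the replicate block or with only the 4 libraries compared, and none against rd10 P15 without any rd10 P15 or P21 library. The 10 markers of inner retina and Müller glia summed to between 3904 and 5596 CPM in all libraries.

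Among 16203 tested genes with a mean of at least 1 CPM, those whose log2 CPM ran closest to the members' mean over the 8 libraries were Lamp2 (Pearson r = 0.986), Cd52 (0.986), Tlr2 (0.981), Gbp7 (0.980) and Ctsz (0.977). Lamp2, a lysosomal membrane protein, stood at 94.98 and 93.9 CPM in WT P15, 142.5 and 150.2 at P18, and 138.7 and 104.1 at P21. Cd52, a leukocyte surface glycoprotein, stood at 0.591 and 0.583 CPM in WT P15, 12.3 and 8.60 at P18, and 11.3 and 1.89 at P21. Both shared with the members the low value of P21 replicate 2.

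Each member had other genes closest to it. These were Grn (0.984), Trim56 (0.984) and Cryzl2 (0.974) for Cybb, and Ccl2 (0.988), Lap3 (0.987) and Cd72 (0.983) for Cyba. Gpr84 (0.995), Cd180 (0.992) and Trim30a (0.985) were closest to Ncf1, Ly86 (0.983), Anxa4 (0.979) and Gypc (0.972) to Ncf4, and Ptpn6 (0.985), Mx1 (0.980) and Capg (0.979) to Rac2. Between members, r ran from 0.708 for Ncf1 and Ncf4 to 0.951 for Cybb and Rac2 over the 10 pairs. These likenesses are picked from many genes over 8 libraries of 4 groups, which share the step from P15 to P18, and they carry no test.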

How the data were processed

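Poly(A) RNA of whole retinas was sequenced, and the authors deposited raw counts per mouse Ensembl gene, whole numbers without normalization. The submitters' processing notes name HISAT2. No source used here gives the counting tool, genome build or annotation. GENCODE M21 (GRCm38) supplied symbols, exon lengths and positions for 52029 of the 57010 identifiers. All 8 columns were used.

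Counts were tested with the quasi-likelihood method of edgeR 4.0.16 (R 4.3.3) in 1 robust fit to 8 libraries in 4 groups, with 4 residual degrees of freedom, after filterByExpr (minimum count 10, minimum total count 15) and TMM scaling. P-values were adjusted by Benjamini-Hochberg over the 20457 genes tested. The standard error is the size of the log2 fold change divided by the square root of F. Log2 CPM used a prior count of 2. Total counts per library lay between 28076947 and 33724562, and the floor of 3 counts covers counting error only. Overlaps of libraries are counts without a test. Promoter windows came from RefSeq.

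The members and lists were chosen with earlier results of these data known, so that no list was tested as a set. Beside the members and their nearest genes, the text names each list gene called in any comparison, and otherwise up to 3 with the highest mean CPM. Spi1, Gtf2ird2, P2ry12, Ly6g, Mpo, Elane and the uncalled components of the enzyme were named outside this rule, after their values were seen. So were Ccr2, Plac8, F13a1, Ms4a7, Mrc1 and Cd163. Some items are not reported here, and the lists and sums leave them out. Alternatives were no fold threshold, no filter on low counts, RLE size factors, scaling by library size, DESeq2 1.42.0 (which the authors used in an earlier version), only the 4 libraries compared, the replicate number as a block, a term for sex, and each library left out in turn. The script was tested on simulated data in which 200 genes changed. Figures were drawn with matplotlib 3.10.9.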

Additional observations from a re-analysis of the deposited data

How the results depend on the processing

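Against WT P15, DESeq2 called 5 members at P18 and 2 at P21, beside 3.42% and 2.23% of all genes. Against rd10 P15 it called 4 and 2, beside 2.22% and 2.06%. Against rd10 P15 at P18, 1 member was called without the filter on low counts, 2 with a term for sex, and 1 with only the 4 libraries compared, which also gave 2 against WT P15. Over all genes, these fits called 147, 224 and 67 higher against rd10 P15, beside 107 in the main fit. The fit to only the 4 libraries called 121 higher against WT P15, beside 235. With 1 library left out, 0 to 3 members were called at P18 and 0 to 1 at P21, against either P15 group, and the calls were 0 in the other 2 comparisons. At P15, the term for sex gave Cybb -0.55 and Cyba -0.51 on the log2 scale, but it is estimated from the P18 and P21 replicates alone. Leaving out 1 library gave Ncf1 values from -0.79 to 0.99, with 0.00 without rd10 P15 replicate 2. Leaving out a library turned Ncf4 at P21 against rd10 P15 (-0.30 to 2.39) and Cybb at P21 against P18 (-2.41 to 0.22). The causes were not tested beyond fewer libraries in the fit. Ncf4 could not be fitted in the 3 comparisons without P18 when only the 4 libraries compared were used.

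Relative to the median of the microglia markers instead of their mean, Cyba stood at -0.04 in WT P15, -0.60 in rd10 P15, 0.91 at P18 and -0.24 at P21, Ncf1 at 0.34 at P18 and -0.18 at P21, and at P18 Cybb at 0.21, Ncf4 at -1.98 and Rac2 at 0.31.

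No shift shared by replicate number was seen, since the correlations of replicate differences between groups lay between -0.0245 and 0.0594. These values cannot show whether retinas were paired by animal or litter. At P18 and P21, replicate number coincides with sex. With the replicate block, 1 member was called at P18 against WT P15 and 0 in the other comparisons, as without it. RLE scaling and dropping the fold threshold changed no member count either. Scaling by library size alone moved the median of all genes to 0.13 (P18) and 0.11 (P21) against WT P15, and raised the share of higher calls from 77.6% to 86% and from 63.3% to 73.6%. It called 371 and 91 genes, and DESeq2 called 950 and 573, beside 303 and 79. The low counts of Ncf4 and the 2 libraries a group limit what could be called.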
